A study of Mus musculus with 50 samples.

Results

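Notch1, Notch2 and Notch4, which encode receptors, and Jag1, Jag2, Dll1 and Dll4, which encode their ligands, were followed through whole mouse thyroid after antibody blockade of Notch receptors or of the Jagged ligands. The 7 genes were chosen by name, and each matched 1 Ensembl ID among the 52636 genes of the count table. All 7 passed the filter on low counts in every fit. The clearest change among them was in Dll4, which was about 2-fold lower 15 hours after the antibodies against Notch1 and Notch2 (a log2 change of -1.04) and did not pass the test 5 days after the same antibodies.

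Notch receptors are transmembrane proteins that bind Jagged or Delta-like ligands on a neighbouring cell. Binding lets proteases release the intracellular part of the receptor, which enters the nucleus and, together with the DNA-binding protein Rbpj and a Mastermind coactivator, switches on target genes of the Hes and Hey families. In blood vessels, Dll4 and Notch1 are known for their roles in tip cell selection and arterial identity, Notch4 is mostly expressed by endothelial cells, and Jag1 on endothelium signals to Notch3 on mural cells. The thyroid is a densely vascularised gland in which capillaries surround each follicle.

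The series holds 50 libraries of thyroid from adult male C57BL/6 mice, aged 10 to 14 weeks according to the treatment protocol and at most 12 weeks according to the series text, in 10 groups of 5 libraries. Each mouse received antibodies once, into the peritoneum. The control was an isotype antibody against ragweed (RW, 40 mg/kg); aJ1aJ2 blocks Jag1 and Jag2 (20 mg/kg each); aN1aN2 blocks Notch1 (5 mg/kg) and Notch2 (10 mg/kg); and aN1aN2aN3 adds an antibody against Notch3 (20 mg/kg). RW, aJ1aJ2 and aN1aN2 were sampled at 15 hours and at 5 days. At 7 days there were 2 sets with separate series of sample IDs. The first held RW and aJ1aJ2, the second aJ1aJ2 and aN1aN2aN3, and its RW libraries, if any, were not analysed here. Injections of thyroid hormones are mentioned in the series text, and no label says which mice received them. No label states whether a library came from 1 mouse or from a pool, so p-values measure the spread between these libraries.

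Libraries held 15271242 to 52835846 counts, and the thyroglobulin gene Tg took 0.45% to 42.4% of them. The thyroid label was checked with Tg, Pax8 and Slc5a5, which were above 0 in each of the 50 libraries. Replicate 3 of RW at 5 days stood apart, with 8069 CPM (counts scaled to a common library size) summed over 12 thyrocyte markers against a group median of 454029, and 253518 CPM over 9 skeletal muscle markers. In 1 aJ1aJ2 library of 5 days the thyrocyte sum was 25475 CPM. Among the aN1aN2 libraries of 15 hours, replicates 2 and 5 stood apart. Their sums were 3844 and 11515 CPM over 7 macrophage markers (357 to 498 in the other 3, 224 to 4308 after RW) and 902 and 1584 CPM over 5 cartilage markers (73.9 to 146, and 79.9 to 252 after RW). Replicate 2 also held 6535 CPM over 7 markers of airway and oesophagus, against 33.8 to 279 in the other 4 and 37.4 to 1128 after RW. RW replicate 5 of 15 hours held the 4308 CPM of macrophage markers, more than aN1aN2 replicate 2. In aN1aN2 at 5 days, the highest macrophage and cartilage sums were 4778 and 932 CPM, against group medians of 283 and 93.9. The highest sum over 8 T cell and thymus markers there was 1234 CPM, against a median of 2.71. Both groups of the second 7-day set stood apart as well. Their thyrocyte sums were 13172 to 48992 CPM, while those of the first set were 110145 to 397835. CPM here use edgeR's TMM factors over all 50 libraries. In whole tissue, fewer cells of a type and less RNA per cell cannot be told apart.

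In thyroid of RW mice, mean levels of the receptors and ligands ran from 0.892 to 1.96 in the authors' FPKM (fragments per kilobase of gene length, scaled for depth). Over the 10 RW libraries of 15 hours and 7 days, the order in FPKM was Notch1 (1.96 ± 0.60, SD, n = 10), Jag2 (1.94 ± 0.30), Dll4 (1.86 ± 0.29), Dll1 (1.73 ± 0.23), Notch4 (1.28 ± 0.20), Jag1 (1.15 ± 0.12) and Notch2 (0.892 ± 0.130). Of the 6 pairs of neighbours in this order, 2 differed beyond their spread in an exact two-sided sign-flip test of the ratio within libraries with Benjamini-Hochberg adjustment over the 6 pairs. These were Dll1 over Notch4 and Jag1 over Notch2, each higher in 10 of 10 libraries (adjusted p = 0.00586, and the raw p of 0.00195 is the smallest that 10 libraries can give). Within the run from Notch1 through Jag2 and Dll4 to Dll1, no neighbours separated (adjusted p 0.299 to 0.768 in the same exact test). The 5 RW libraries of 5 days lie in the other block of the FPKM table and were ordered separately, with Dll4 highest (1.48 ± 0.23) and Notch2 again last (0.796 ± 0.351). With 5 libraries the smallest p is 0.0625, so no pair could pass.

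Notch2 moved from last to first when levels were set per length of exon. Dividing count by FPKM gave the length that the authors' table used for each gene, and for 90.5% of 38389 genes it was proportional, within 1%, to the whole gene span with introns in the GENCODE M21 annotation, against 0.412% for the summed exon length. Notch2 spans 136.8 kb with 10.8 kb of exons, whereas Dll4 spans 10.2 kb with 3.85 kb of exons. In CPM per kilobase of M21 exons the order in the same 10 RW libraries was Notch2 (10.8 ± 1.5, SD, n = 10), Jag1 (6.62 ± 0.673), Notch1 (6.01 ± 1.81), Jag2 (5.84 ± 0.915), Dll4 (4.67 ± 0.696), Notch4 (3.68 ± 0.558) and Dll1 (3.36 ± 0.416). On this scale Notch2 over Jag1, Jag2 over Dll4 and Dll4 over Notch4 differed beyond their spread (adjusted p of 0.00586, 0.00781 and 0.00586 in the exact test), and the other 3 neighbouring pairs did not.

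Per kilobase of the longest M21 transcript Notch2 was again first (11.1 ± 1.54) and Notch1 second (9.01 ± 2.72), followed by Jag2, Jag1, Dll4, Notch4 and Dll1. The span behind the FPKM of Notch1 (45.9 kb) was shorter than its M21 span (58.8 kb). The same held for Dll1 (8.62 against 9.52 kb), while the other 5 genes matched within 1%. Whether reads in introns were counted is not given in the sources used here, so neither scale is a molar ratio.

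**Figure D1:**
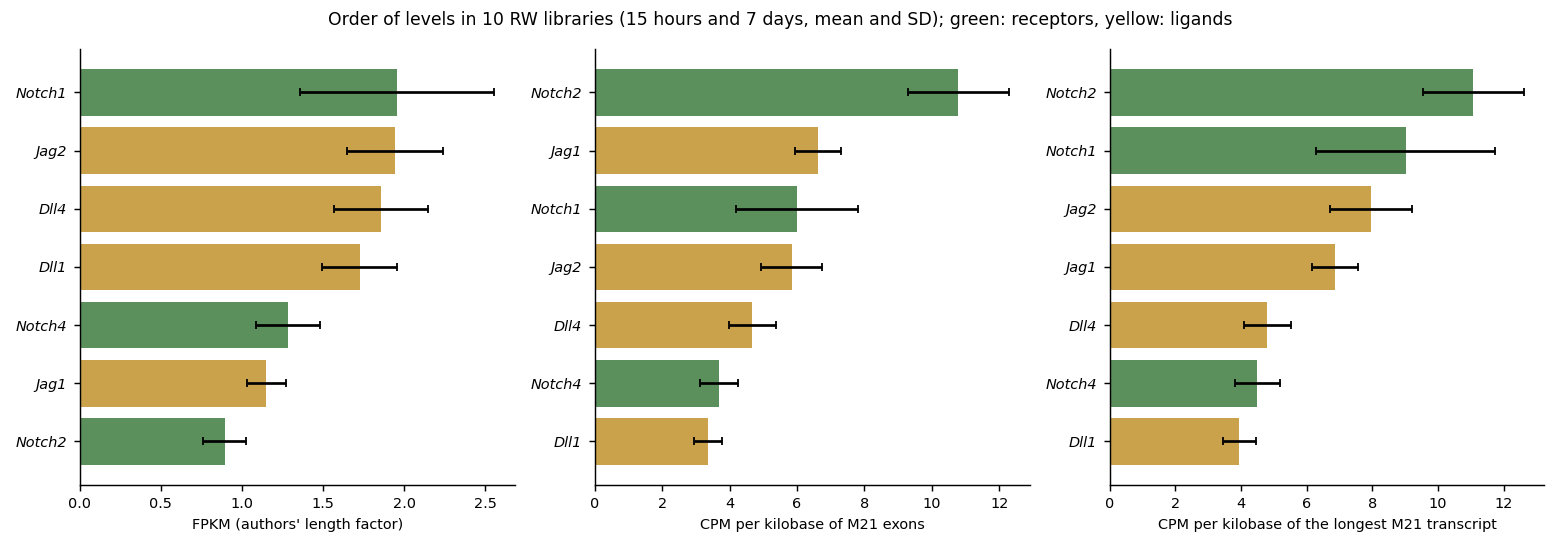
Mean level and SD of the 7 genes in the 10 RW libraries of 15 hours and 7 days, as FPKM (left), CPM per kilobase of exons (middle) and CPM per kilobase of the longest transcript (right), with receptors in green and ligands in yellow. Notch2 was last in FPKM at 0.892 and first on both exon-based scales, at 10.8 and 11.1.

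Across the 8 groups outside the second 7-day set, group means stayed within 62.3 to 95.2 CPM for Notch1, 103 to 129 for Notch2, 19.5 to 38.6 for Notch4 and 31.7 to 44.6 for Jag1. The means of Jag2 lay between 24.1 and 43.3 CPM, those of Dll1 between 10.7 and 14.8, and those of Dll4 between 8.04 and 19.5. The lowest Dll4 mean was that of aN1aN2 at 15 hours. In the second set the means were lower for each gene, for example 10.6 and 18.8 CPM for Notch1 and 5.85 and 6.15 CPM for Dll4.

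**Figure D2:**
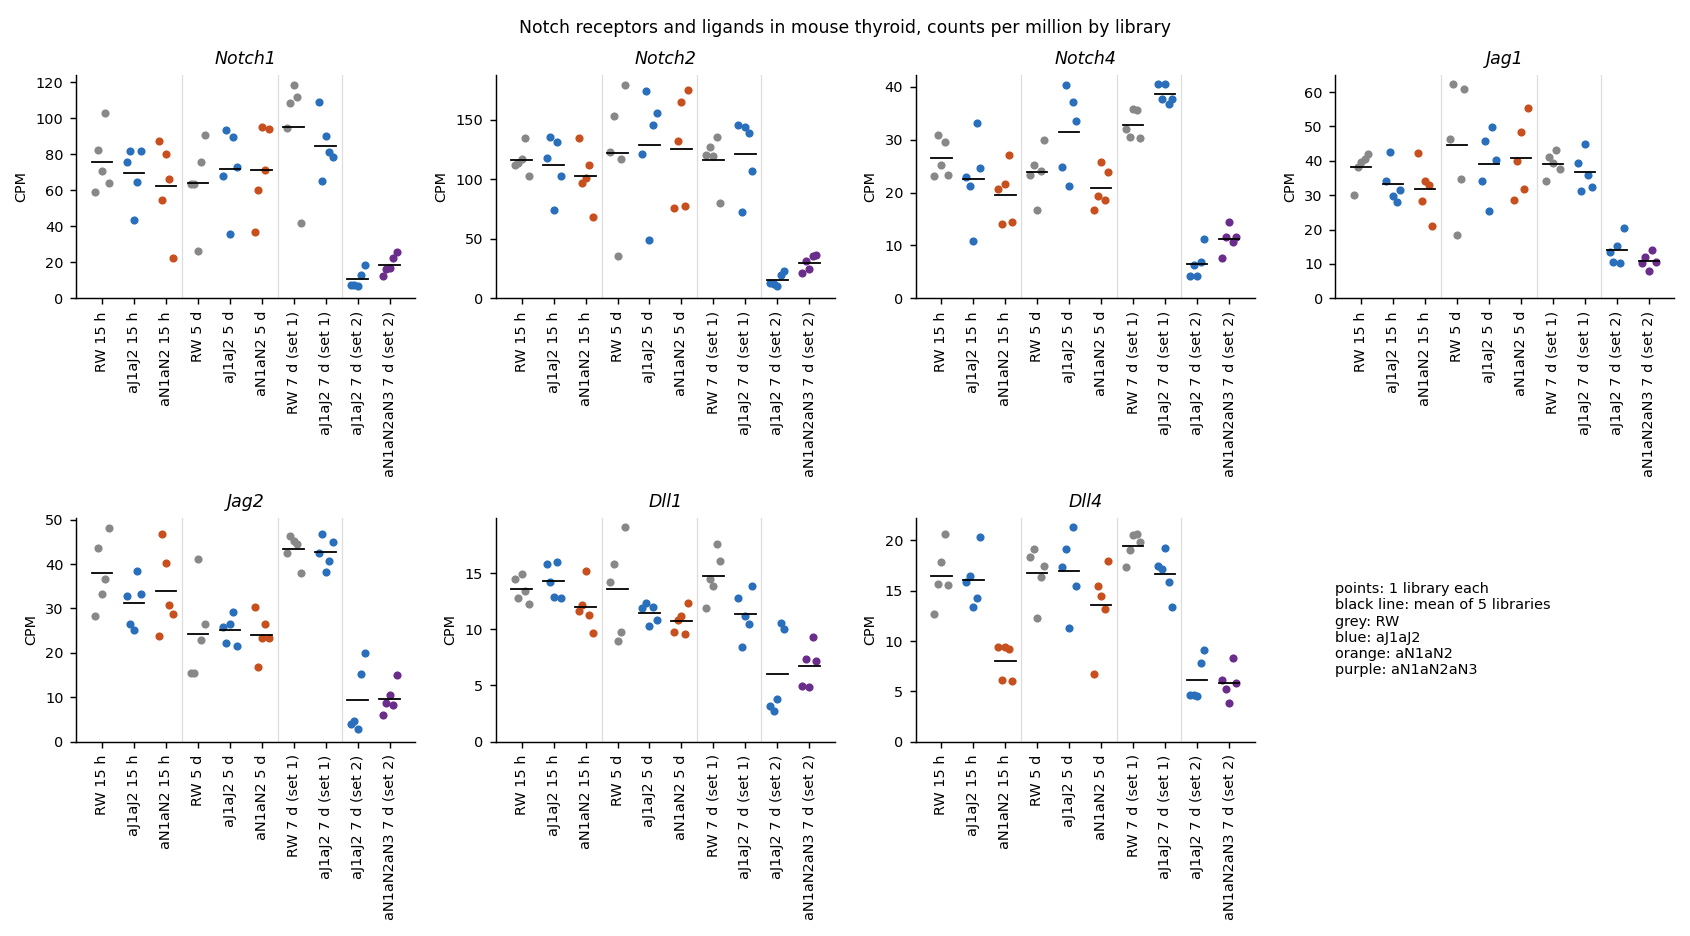
CPM of each gene (vertical axes start at 0) in the 50 libraries by group, with 1 point per library and a line at the mean of 5. The aN1aN2 libraries of 15 hours lie between 6.01 and 9.41 CPM for Dll4, below every RW library, and both groups of the second 7-day set lie low for each gene.

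At 15 hours after aN1aN2, Dll4 was lower in all 5 libraries than in any RW library of that time. Dll4 encodes a Delta-like ligand that tip cells and arterial endothelium carry. Its levels were 9.41, 6.11, 9.40, 9.24 and 6.01 CPM after aN1aN2, against 12.7, 15.7, 17.9, 20.7 and 15.6 CPM after RW. The groups did not overlap, and the values rest on 153 to 408 reads per aN1aN2 library and 357 to 747 per RW library. The mean fell from 16.5 ± 2.97 to 8.04 ± 1.81 CPM (SD, n = 5 each), a log2 change of -1.04 (SE 0.18, 95% interval -1.42 to -0.66, adjusted p = 0.00847 in edgeR's quasi-likelihood test with Benjamini-Hochberg adjustment over 18513 genes). Dll4 was the 1 member called of 7 in this comparison, in which 1.68% of all genes tested were called. The call held in each of 11 alternative settings, with adjusted p between 7.5e-06 and 0.0487, and without each of the 10 libraries in turn (0.0109 to 0.0377). The lowest 2 values were those of replicates 2 and 5, which stood apart in macrophage and cartilage markers, lists with 0 of 7 and 0 of 5 called. With both left out, an alternative added after the data were seen, the log2 change was -0.82 (SE 0.17, adjusted p = 0.0487 in edgeR) and 135 genes were called in place of 311. The part of those other tissues in the change was not tested.

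The aN1aN2 libraries of 15 hours carry sample IDs of a different series from their RW controls, which means that antibody and ID series cannot be told apart here. The 5-day RW libraries share that ID series and FPKM block. Against them, across the difference in time, Dll4 was also lower, with a log2 change of -1.07 (SE 0.21, adjusted p = 0.018 in edgeR), and 1.25% of all genes were called. RW at 5 days held 18.4, 19.2, 12.2, 16.4 and 17.4 CPM of Dll4, so the 5 aN1aN2 libraries lay below these as well.

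By their median, markers of endothelium moved less than Dll4. Of 12 endothelial marker genes, edgeR called 0 at 15 hours after aN1aN2, while 2 had an unadjusted p under 0.05 (14.4% of all genes), DESeq2 called 2 (4.65% of all genes) and limma's voom with quality weights 0 (2.75%). Their median log2 change was -0.05, beside 0.01 for all genes. Their summed level was 793 to 1177 CPM after aN1aN2 and 841 to 1271 CPM after RW. Set against that sum, Dll4 was 0.745% to 0.890% in the 5 aN1aN2 libraries and 1.35% to 1.85% in the 5 RW libraries. With the endothelial sum as a covariate, the log2 change was -1.01 (adjusted p = 0.00267 in edgeR). For arterial endothelium, the gap junction gene Gja4 was called lower (-0.95, SE 0.17, adjusted p = 0.0124 in edgeR), the other 5 of 6 markers were not, the median was -0.41, and the summed level was 49.0 to 79.4 CPM after aN1aN2 against 75 to 95.2 CPM after RW. Of those 5, Efnb2 was at -0.51 (unadjusted p = 0.0382 in edgeR), Sox17 at -0.48 (0.00513), Hey1 at -0.34 (0.0735), Cxcr4 at 0.07 (0.905) and Gja5 at 0.06 (0.888). With aN1aN2 replicates 2 and 5 left out, Gja4 was at -0.98 (adjusted p = 0.0581) and no longer called. The part of endothelium, or of its arterial share, in the change of Dll4 was not tested.

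**Figure D3:**
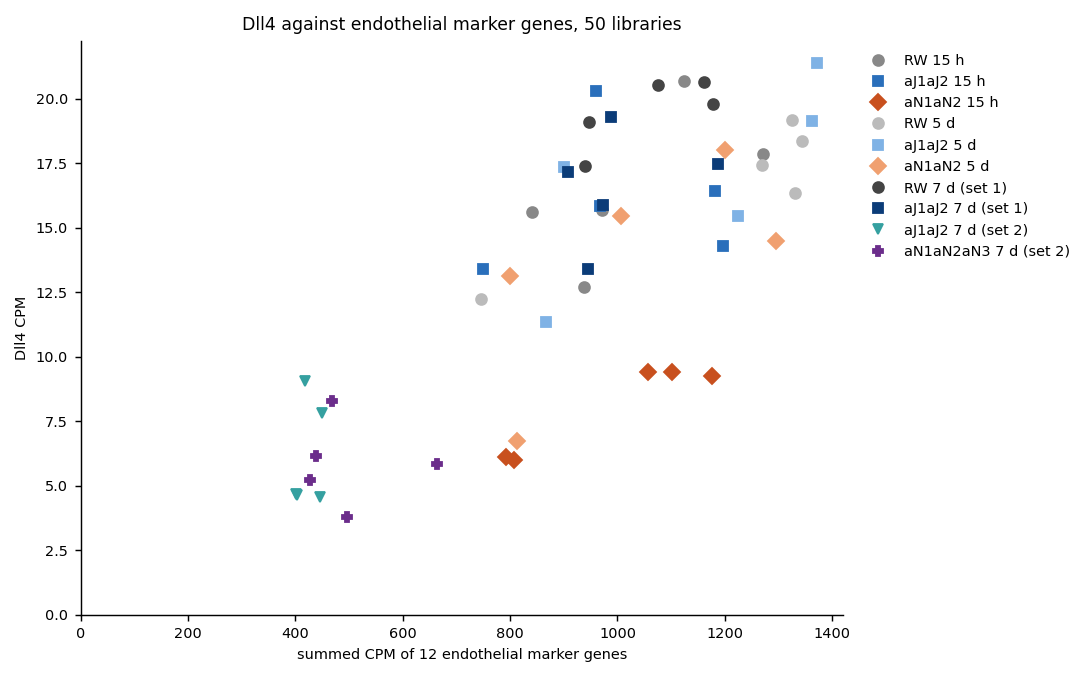
CPM of Dll4 against the summed CPM of 12 endothelial marker genes in the 50 libraries, both axes from 0, with 1 symbol per group. The 5 aN1aN2 libraries of 15 hours lie below the RW libraries at a like endothelial sum, and 1 of the 5 aN1aN2 libraries of 5 days, at 6.71 CPM, lies beside them.

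The promoter of Dll4 is shown because Dll4 was the member called at 15 hours. The 250 bases before the RefSeq start of Dll4 (mouse GRCm38.p6, chr2:119325534-119325783, plus strand) are printed below with GC boxes and the CCAAT box in capitals.
Dll4: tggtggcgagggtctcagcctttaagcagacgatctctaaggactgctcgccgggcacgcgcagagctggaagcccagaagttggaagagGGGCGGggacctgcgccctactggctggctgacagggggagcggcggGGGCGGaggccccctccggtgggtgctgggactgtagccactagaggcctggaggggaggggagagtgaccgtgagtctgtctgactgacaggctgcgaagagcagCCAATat
All 7 genes had an entry in the RefSeq promoter table, and 65.6% of these Dll4 bases are G or C, beside a median of 52.4% over all promoters. The GC box GGGCGG was found on either strand in 32.7% of 32851 promoter windows of this length and in those of Dll4, Jag2, Notch1 and Notch2. The CCAAT box CCAAT was in 33.8% of windows and in those of Dll4 and Dll1. The Rbpj core TGGGAA (21.6% of windows), the E-box CACGTG (6.02%), the ETS motif CCGGAAG (6.91%) and the TATA box TATAAA (12.4%), each searched on both strands with overlaps between motifs allowed, had 0 matches in the windows of the 7 genes. These are matches of letters in a short window and say nothing about binding elsewhere.

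The receptors that aN1aN2 targets did not pass the test at 15 hours. Notch1 was at 87.6, 54.7, 80.4, 66.4 and 22.3 CPM after aN1aN2 and at 59.0, 82.4, 70.8, 103 and 64.1 CPM after RW, a log2 difference of -0.29 with a 95% interval of -0.93 to 0.35. Notch2 differed by -0.18 (-0.57 to 0.21). Both sets of values overlapped. Notch4, the receptor that none of the antibodies targets by name, differed by -0.44 (-0.97 to 0.09, adjusted p = 0.443 in edgeR). Among the ligands, the differences were -0.27 for Jag1 (-0.63 to 0.09), -0.16 for Jag2 (-0.58 to 0.25) and -0.18 for Dll1 (-0.44 to 0.07). The intervals reach down to 0.527-fold for Notch1 and 0.511-fold for Notch4, and to between 0.646-fold and 0.735-fold for the other 4.

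After blockade of Jag1 and Jag2 for 15 hours, 0 of the 7 genes were called in edgeR, 0 had an unadjusted p under 0.05, and DESeq2 and voom also called 0. Of all genes, 0.573% were called in edgeR, 6.59% had an unadjusted p under 0.05, and 1.46% and 0.967% were called by DESeq2 and voom. The genes of the blocked ligands were at 33.2 ± 5.66 CPM (Jag1) and 31.2 ± 5.47 CPM (Jag2) after aJ1aJ2, against 38.1 ± 4.70 and 38.0 ± 7.95 CPM after RW (SD, n = 5 each). Their log2 differences were -0.20 (95% interval -0.56 to 0.16) and -0.29 (-0.70 to 0.13). Dll4 was at 15.8, 16.4, 13.4, 14.3 and 20.3 CPM, within the range of RW, with a difference of -0.04 (-0.42 to 0.33). The bound of -0.42 lies above the -1.04 measured after aN1aN2.

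The difference in Dll4 between the receptor and the ligand antibodies at 15 hours was tested directly. Dll4 was lower after aN1aN2 than after aJ1aJ2 in all 5 libraries (log2 difference -0.999, SE 0.18, adjusted p = 0.0446 in edgeR), the 1 member called of 7 where 0.13% of all genes were called. This call was lost in 5 of 10 alternative settings (adjusted p over the 10 from 2.6e-05 to 0.255), among them the one with aN1aN2 replicates 2 and 5 left out (-0.78, SE 0.17, adjusted p = 0.255 in edgeR, with 0 genes called of all tested). It was also lost without any 1 of 9 of the 10 libraries, aJ1aJ2 replicate 3 being the exception (0.033 to 0.125 over the 10). With 1 library left out the size stayed between -1.08 and -0.91. The 2 groups carry sample IDs of different series, so antibody and ID series cannot be told apart here either. Dll1 was at 9.66 to 15.2 CPM after aN1aN2 and 12.8 to 16.0 CPM after aJ1aJ2, with an unadjusted p of 0.0491 and an adjusted p of 0.396 in edgeR.

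**Figure D4:**
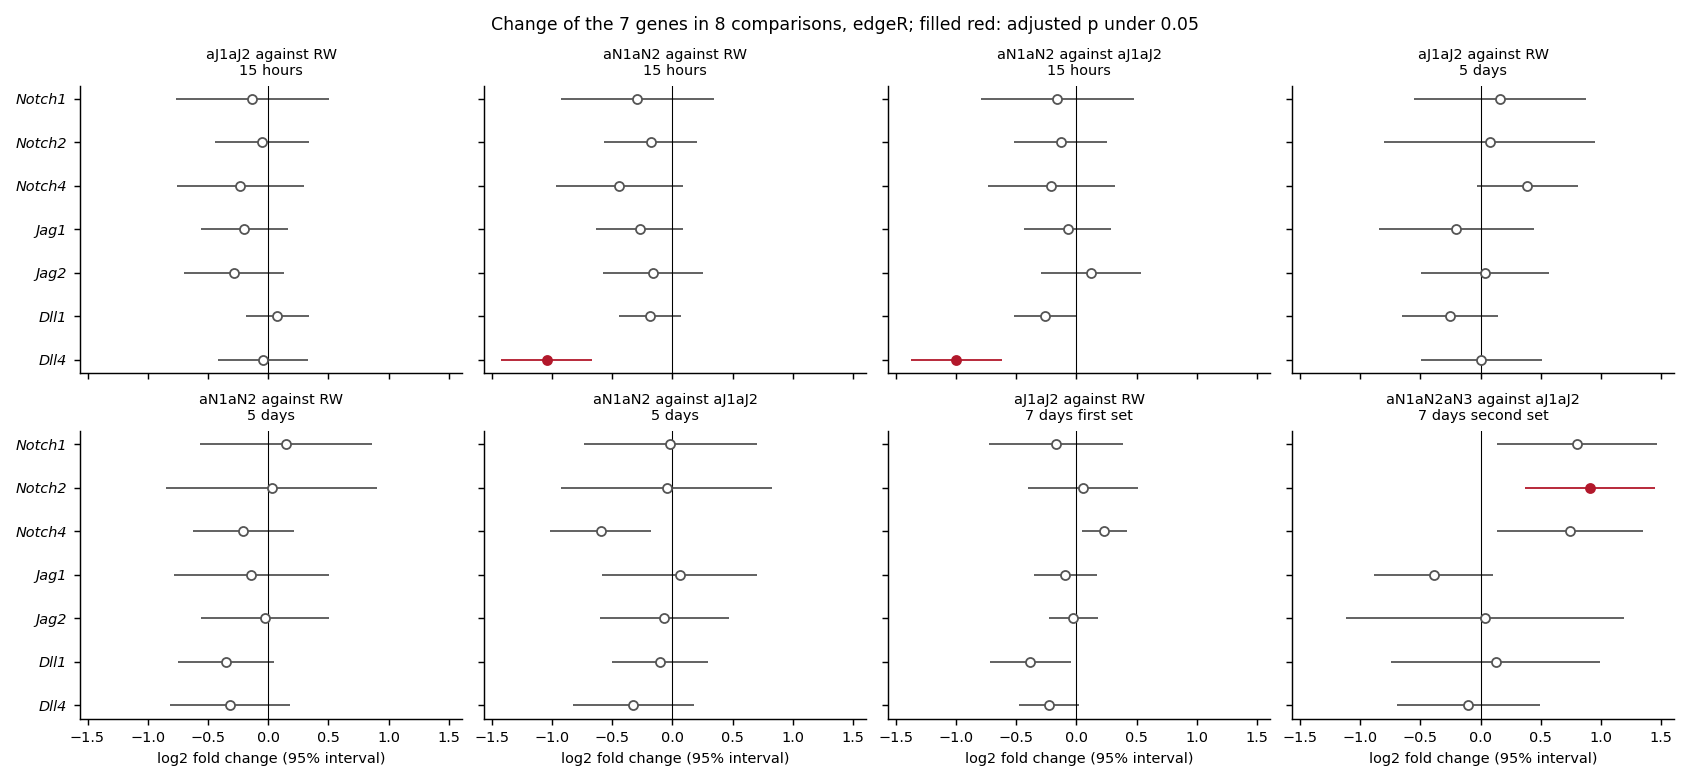
Log2 fold changes (horizontal axes, with 95% intervals) of the 7 genes in the 8 comparisons between antibodies at the same time and in the same set. Filled red points passed an adjusted p under 0.05, and these are Dll4 after aN1aN2 at 15 hours (-1.04 against RW and -0.999 against aJ1aJ2) and Notch2 in the second 7-day set (0.91).

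By 5 days after aN1aN2, Dll4 was at 6.71, 15.5, 14.5, 13.1 and 18.0 CPM against 18.4, 19.2, 12.2, 16.4 and 17.4 CPM after RW. Replicate 1 was near the level seen at 15 hours, and the other 4 lay within the RW range. The log2 difference was -0.32 (95% interval -0.82 to 0.18, adjusted p = 0.793 in edgeR). The change between 15 hours and 5 days in the effect of aN1aN2 was 0.73 on the log2 scale (SE 0.30, unadjusted p = 0.0207, adjusted p = 0.229 in edgeR), which did not pass. Its 15-hour part crosses ID series and its 5-day part does not, so time and ID series cannot be told apart. It passed with voom and quality weights (0.76, adjusted p = 0.0467) and with the muscle sum (0.80, 0.0338) or the endothelial sum (0.87, 0.0167) as a covariate, and in none of the other 6 settings. With voom, the muscle sum and the endothelial sum, 1458, 1636 and 2336 of all genes were called, against 348 in the main fit. One of the other 6 settings left out aN1aN2 replicates 2 and 5 of 15 hours (0.53, adjusted p = 0.518).

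None of the other 6 members was called after aN1aN2 at 5 days. In this comparison 0 of 7 members and 0% of all genes were called in edgeR, 0 members had an unadjusted p under 0.05, and DESeq2 and voom called 0 members. Of all genes, 10% had an unadjusted p under 0.05, and DESeq2 called 402 (2.27%) and voom 1507 (8.18%). Notch1 differed by 0.15 (95% interval -0.57 to 0.86), Notch2 by 0.03 (-0.85 to 0.90), Notch4 by -0.21 (-0.63 to 0.21), Jag1 by -0.14 (-0.79 to 0.50), Jag2 by -0.03 (-0.56 to 0.50) and Dll1 by -0.35 (-0.75 to 0.05). The intervals were widest for Notch2, whose RW libraries ran from 35.9 to 179 CPM. Without the muscle-rich RW replicate 3 the differences became -0.05 for Notch1, -0.20 for Notch2 and 0.25 for Jag2, each with the opposite sign. That library held the lowest Notch2 of its group and the highest Jag2, at 41.2 CPM against 15.5 to 26.6 CPM in the other 4.

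After aJ1aJ2 at 5 days, 0 of 7 members were called in edgeR, where 0.179% of all genes were called. At an unadjusted p under 0.05 the count was 0, with DESeq2 it was 0, and with voom it was 1, where the shares of all genes were 11.8%, 2.95% and 18.9%. That gene was Notch4, at 24.8, 40.4, 21.3, 37.2 and 33.6 CPM after aJ1aJ2 and at 23.4, 25.3, 16.8, 24.1 and 29.9 CPM after RW. The groups overlapped, and the log2 difference was 0.39 (SE 0.20, 95% interval -0.03 to 0.81, adjusted p = 0.470 in edgeR). It passed with voom (0.49, adjusted p = 0.010) and with the muscle sum (0.40, 0.030) or the endothelial sum (0.43, 0.0289) as a covariate. The genes called of all 18434 tested rose from 33 to 1105 with the muscle sum and to 883 with the endothelial sum. As a percentage of the endothelial marker sum, Notch4 was 2.45% to 2.96% after aJ1aJ2 and 1.74% to 2.36% after RW, which did not overlap. Jag1, Jag2, Dll1 and Dll4 differed by -0.20, 0.04, -0.25 and 0.01, with intervals that reach from -0.85 to 0.57 over the 4 ligands.

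Notch4 separated the receptor and ligand antibodies at 5 days before adjustment and not after it. It was at 16.6, 19.3, 25.9, 18.5 and 23.96 CPM after aN1aN2, and the groups overlapped, since aJ1aJ2 libraries ran from 21.3 to 40.4 CPM. The log2 difference was -0.60 (SE 0.20, unadjusted p = 0.00906, adjusted p = 0.924 in edgeR). In this comparison edgeR called 0 of 7 members and 0% of all genes. DESeq2 called 0 members and 0.254% of all genes, voom 1 member (Notch4, adjusted p = 0.0261) and 0.374%, and 4.22% of all genes had an unadjusted p under 0.05. Of the 12 endothelial markers, edgeR and DESeq2 called 0 here, voom 3, and 5 had an unadjusted p under 0.05, with a median of -0.35. Their part in the Notch4 difference was not tested.

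At 7 days in the first set, Notch4 was again higher after aJ1aJ2 than after RW without passing the adjusted test. Its levels were 40.5, 37.7, 40.5, 36.8 and 37.7 CPM after aJ1aJ2 and 31.97, 30.5, 35.8, 35.6 and 30.3 CPM after RW. The groups did not overlap. The log2 difference was 0.23 (SE 0.09, 95% interval 0.04 to 0.42, unadjusted p = 0.0200, adjusted p = 0.341 in edgeR), so a change above 1.34-fold lies outside the interval. At 15 hours the same difference had the other sign, -0.23 (-0.76 to 0.29), and the change of the aJ1aJ2 effect from 15 hours to 7 days was 0.43 (SE 0.27, adjusted p = 0.577).

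Dll1, a Delta-like ligand, went the other way in the same 7-day comparison. It was at 12.8, 8.47, 11.1, 10.5 and 13.9 CPM after aJ1aJ2 and at 11.9, 14.5, 13.8, 17.6 and 16.1 CPM after RW. The groups overlapped, and the log2 difference was -0.38 (SE 0.15, 95% interval -0.72 to -0.05, unadjusted p = 0.0284, adjusted p = 0.375 in edgeR). Dll4 was at 13.4 to 19.3 CPM against 17.4 to 20.6 CPM, a difference of -0.23 (-0.48 to 0.02).

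In all, 0 of 7 members and 0% of all genes were called in the first 7-day set, 2 members (Notch4 and Dll1) and 11.6% of all genes had an unadjusted p under 0.05, and DESeq2 and voom called 0 members and 2.44% and 3.66% of all genes. Of the genes of the blocked ligands, Jag2 differed by -0.03 (-0.23 to 0.18). It was at 42.7 ± 3.36 CPM after aJ1aJ2 and 43.3 ± 3.26 CPM after RW (SD, n = 5 each). Jag1 differed by -0.09 (-0.35 to 0.17). Notch1 differed by -0.17 and Notch2 by 0.06, and in RW replicate 5 both were at their group's lowest, 42.0 and 80.1 CPM.

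In the second 7-day set, the 3 receptors were higher after aN1aN2aN3 than after aJ1aJ2, and Notch2 passed the test. Notch2 was at 21.3, 31.2, 24.9, 35.4 and 36.8 CPM after aN1aN2aN3 and at 12.97, 11.7, 10.4, 19.9 and 22.9 CPM after aJ1aJ2. The groups overlapped only through aJ1aJ2 replicate 5. The log2 difference was 0.91 (SE 0.25, 95% interval 0.37 to 1.45, adjusted p = 0.0252 in edgeR), the 1 member called of 7 in a comparison that called 19.6% of all genes. Notch1 differed by 0.80 (SE 0.31, adjusted p = 0.0841) and Notch4 by 0.74 (SE 0.28, adjusted p = 0.0800), and neither passed. The ligands differed by -0.39 (Jag1), 0.04 (Jag2), 0.13 (Dll1) and -0.10 (Dll4), with intervals from -1.12 to 1.19 across the 4. DESeq2 called Notch2 and Notch4 where it called 26.6% of all genes, and voom the 3 receptors, Jag2 and Dll1 where it called 44.5%.

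The count of called members in the second set depended on single libraries. Without aJ1aJ2 replicate 5, all 3 receptors were called (Notch1 1.10, Notch2 1.09 and Notch4 1.02 on the log2 scale, with adjusted p of 0.0141, 0.00916 and 0.0118 in edgeR). The Notch2 call was lost without aJ1aJ2 replicate 1 or 3 or aN1aN2aN3 replicate 2, 4 or 5 (adjusted p 0.054 to 0.063), and with the endothelial sum as a covariate (0.78, adjusted p = 0.107). Of the 12 endothelial markers, 4 were called higher and 2 lower in this comparison, with a median of 0.37 beside -0.07 over all genes, and their sum was 427 to 664 CPM after aN1aN2aN3 and 401 to 450 CPM after aJ1aJ2. Adipocyte markers were lower after aN1aN2aN3 (5 of 8 called, median -2.19, sums of 350 to 1588 CPM against 3681 to 4511). Of fibroblast markers 3 of 7 were called lower (median -2.16), of mural cell markers 2 of 9 and of macrophage markers 2 of 7. Of C cell markers, 2 of 6 were called higher. Of 11 thyrocyte markers tested, 2 were called higher and 1 lower. Beside these counts, 19.6% of all genes were called in either direction. The 644 tested genes in the top class of both exonic length and GC content, among them Notch1, Notch4 and Jag2, had a median of 0.32, and 21.3% were called. The part of cell types, length and GC content in the receptor difference was not tested. Without RW libraries from this set, the difference cannot be assigned to either antibody.

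The same antibodies at the same time gave far lower levels in the second set than in the first. Between the aJ1aJ2 groups, all 7 members were called lower in the second set, where 64% of all genes were called and 29.9% were called lower. Notch1 differed by -2.98 (SE 0.31), Notch2 by -2.94 (0.25), Notch4 by -2.52 (0.22), Jag2 by -2.18 (0.40), Dll4 by -1.40 (0.21), Jag1 by -1.34 (0.19) and Dll1 by -0.89 (0.32, adjusted p = 0.0186 in edgeR). The median of all genes was 0.09. In the second set the aJ1aJ2 libraries held 7.201, 7.61, 6.76, 12.8 and 18.5 CPM of Notch1, against 65.2 to 109 CPM in the first. Replicates 4 and 5 were also the highest of the 5 for Jag2, at 15.2 and 19.9 CPM against 2.75 to 4.68 CPM, and for Dll1, at 10.6 and 10.0 CPM against 2.69 to 3.77 CPM.

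Length and base content of the genes moved with this difference between sets. With all tested genes split into 4 equal classes of exonic length, the medians from the shortest to the longest class were 1.009, 0.31, -0.14 and -0.62 on the log2 scale. With 4 classes of GC content of the longest transcript, from the lowest to the highest, they were 0.67, 0.16, -0.12 and -0.41. The 697 tested genes in the top class of both had a median of -1.68, and 83.6% of them were called lower. Notch1, Notch4 and Jag2 belong to them. Markers of several cell types also moved, where 29.9% of all genes were called lower. Of endothelial markers 9 of 12 were called lower and 1 higher (median -1.50), and of mural cell markers 6 of 9 lower (-1.53). Of 11 thyrocyte markers tested, 6 were called lower and 2 higher (-0.81). Of macrophage markers 3 of 7 were called higher (median 0.48), and of 8 adipocyte markers 3 were higher and 1 lower (0.22). Beside these counts, 64% of all genes were called in either direction, with a median of 0.09. With the endothelial sum as a covariate, 2 members were still called, Notch2 (-2.15, adjusted p = 0.0344) and Notch4 (-2.21, adjusted p = 0.0158). The other 5 were not, with values of -2.01 for Notch1 (adjusted p = 0.0947), -1.08 for Jag1 (0.183), -1.34 for Jag2 (0.401), -0.14 for Dll1 (0.931) and -1.18 for Dll4 (0.185). The part of length, GC content and cell types in the difference was not tested, and set and ID series cannot be told apart.

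**Figure D5:**
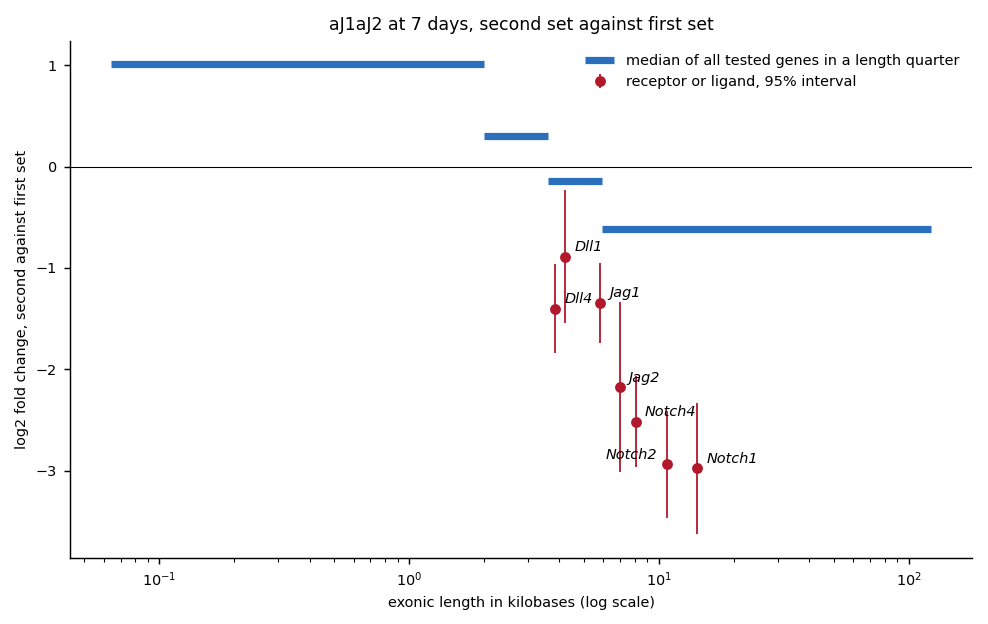
Log2 fold change between the aJ1aJ2 groups of the second and the first 7-day set against exonic length on a log axis, with the 7 genes in red (95% intervals) and the median of all tested genes in each of 4 length classes in blue. The 7 genes lie between -0.89 and -2.98, below the median of their class, and the 4 longest are the lowest.

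Over time in RW mice, 0 of the 7 members were called between 15 hours and 7 days in edgeR (3.42% of all genes were), 0 had an unadjusted p under 0.05, DESeq2 called 0 and voom 3 (Notch1, Notch4 and Jag2). The shares of all genes by these rules were 16.1%, 6.2% and 20.7%. All 7 differences were above 0, from 0.03 for Notch2 to 0.35 for Notch1, with intervals between -0.39 and 0.86. The RW libraries of the 2 times carry sample IDs of different series, so time and ID series cannot be told apart. Dll4 was at 17.4, 19.1, 20.5, 20.6 and 19.8 CPM at 7 days, and its difference was 0.26 (-0.03 to 0.55). For the change of an antibody effect with time, edgeR called 0 of 7 members for aJ1aJ2 from 15 hours to 7 days (0.314% of all genes), 0 for aJ1aJ2 from 15 hours to 5 days (0.636%) and 0 for aN1aN2 from 15 hours to 5 days (1.8%). At an unadjusted p under 0.05 the counts were 1 (Dll1, -0.49), 0 and 1 (Dll4, 0.73), DESeq2 called 0 in each, and voom called 0, 0 and 1. In the same order, the shares of all genes were 10.9%, 11.2% and 14.8% at an unadjusted p under 0.05, 2.08%, 2.55% and 4.66% with DESeq2, and 1.97%, 16.5% and 7.54% with voom.

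Of the other genes of the pathway, edgeR called 1 of 49 tested at 15 hours after aJ1aJ2 and 1 of 49 after aN1aN2. The shares of all genes called were 0.573% and 1.68%. The list held 50 genes in 7 groups, from the remaining receptor Notch3 and non-canonical ligands through fringe enzymes, ligand endocytosis, receptor cleavage, the nuclear complex and negative regulators to the Hes and Hey targets. After aJ1aJ2 at 15 hours, 0 of 49 tested rose and 1 fell, Notch3, the receptor of mural cells, from 43.4 ± 7.38 to 23.5 ± 5.47 CPM (SD, n = 5 each, log2 change -0.89, adjusted p = 0.0443 in edgeR). Notch3 is itself on the list of 9 mural cell markers, of which Rgs5 was also called lower, with a median of -0.57 and sums of 431 to 2202 CPM against 596 to 2802 after RW. Fibroblast and skeletal muscle markers had medians of -0.56 and -0.63 with 0 called, and the part of these cells was not tested. After aN1aN2 at 15 hours, 0 of 49 rose and 1 fell, Psenen, which encodes a subunit of the γ-secretase that cleaves the receptors (from 1.94 ± 0.33 to 0.915 ± 0.304 CPM, -1.08, adjusted p = 0.0283, and -1.34 with adjusted p = 0.0230 when aN1aN2 replicates 2 and 5 were left out). The medians over the tested genes of the list were -0.04 and -0.05, beside -0.03 and 0.01 for all genes. The direct comparison of aN1aN2 with aJ1aJ2 at 15 hours called 0 of 49 in edgeR, where 0.13% of all genes were called. At an unadjusted p under 0.05 there were 8 (12.5% of all genes), and DESeq2 (2.78%) and voom (0.308%) each called 1.

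Later, edgeR called 0 of 48 pathway genes in each of the 3 comparisons at 5 days and 0 of 47 in the first 7-day set. At an unadjusted p under 0.05 there were 11 after aJ1aJ2 at 5 days (DESeq2 called 5 and voom 17), 5 after aN1aN2 (1 and 5), 3 between the antibodies (0 and 3) and 11 at 7 days (3 and 4). The shares of all genes at an unadjusted p under 0.05 were 11.8%, 10%, 4.22% and 11.6% in that order, beside 11 of 48, 5 of 48, 3 of 48 and 11 of 47. With DESeq2 the shares were 2.95%, 2.27%, 0.254% and 2.44%, and with voom 18.9%, 8.18%, 0.374% and 3.66%. Of the Hes and Hey targets, 6 of 7 passed the filter, and edgeR called 0 of them after either antibody at 15 hours, 5 days or 7 days in the first set. At an unadjusted p under 0.05 there were 0 to 3, with 0 to 2 called by DESeq2 and 0 to 4 by voom. The 3 and voom's 4 were after aJ1aJ2 at 5 days, where the shares of all genes were 11.8% and 18.9%. DESeq2 called 2 after aN1aN2 at 15 hours (4.65% of all genes) and 2 after aJ1aJ2 at 7 days (2.44%). An unadjusted p under 0.05 was reached by 2 after aN1aN2 at 15 hours (14.4% of all genes), 2 at 5 days (10%) and 2 after aJ1aJ2 at 7 days (11.6%). Median log2 changes of the targets after aJ1aJ2 were 0.003 at 15 hours, -0.36 at 5 days and -0.48 at 7 days. After aN1aN2 they were -0.39 at 15 hours and -0.06 at 5 days. For all genes the medians were -0.03, -0.06, 0.01, 0.01 and -0.07 in that order. In the second set, where 19.6% of all genes were called, 3 of 47 were higher after aN1aN2aN3 than after aJ1aJ2. These were Aph1c (1.73, adjusted p = 0.00327) and Ncstn (0.72, 0.0464), both γ-secretase subunits, and the Mastermind coactivator Maml3 (0.85, 0.0352). Mfap5, which encodes a microfibril protein, was lower (-2.04, 0.00471). Between the sets, 26 of 47 were lower and 6 higher in the second, where 64% of all genes were called and 29.9% lower, with Maml1 (-3.14) and Notch3 (-3.23) among the largest falls and Snw1 (1.63) and Mfap5 (1.60) among the largest rises. In RW mice, 3 of 48 were higher at 7 days than at 15 hours, where 3.42% of all genes were called. They were the Notch target and feedback inhibitor Nrarp (1.43, adjusted p = 0.0190 in edgeR), Hes7 (1.41, 0.0308) and Maml1 (0.46, 0.0406). These RW groups carry sample IDs of different series, so time and ID series cannot be told apart. Nrarp and Hes7 were at 1.08 and 0.769 CPM at 15 hours, and the Nrarp value is uncertain because its exons overlap those of Gm38287 on the opposite strand. The exons of Notch3 likewise overlap Gm17276.

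Deviations of the 7 genes from their group means were compared with those of 16200 genes at 1 CPM or more over the 50 libraries, as a description without a test, since libraries share composition and depth. Dll4 was most like Brd2 (r = 0.81), Mmrn2 (0.79) and Arap3 (0.76), and Dll1 like Mmrn2 (0.78), Flt4 (0.78) and Tln1 (0.78). Mmrn2 and Flt4 are expressed by blood and lymphatic endothelium. Jag1 was most like Efnb2 (0.86), an arterial ephrin, Fam168b (0.86) and Arhgef10 (0.85). Notch4 was most like Map3k11 (0.90), Caskin2 (0.89) and Ltbp3 (0.88), and Jag2 like Crtc3 (0.90), Git1 (0.89) and Tmem201 (0.88).

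Notch1 (Arid1a 0.93, Phf12 0.90, Trrap 0.90) and Notch2 (Piezo1 0.97, Myh9 0.95, Abca3 0.94) had the closest partners. Among the 7 genes themselves, Notch1 and Notch2 deviated most alike (r = 0.84), followed by Notch2 and Jag1 (0.79). Jag2 stood apart from Jag1 (-0.19) and Notch2 (0.03). In the muscle-rich RW library of 5 days Jag2 was high while Jag1, at 18.3 CPM, was the lowest of its group.

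Exons of Notch1, Notch2, Dll1 and Dll4 overlap other genes in M21, and those of Notch4, Jag1 and Jag2 do not. The use of strand in counting is not given in the sources used here, so reads in the shared stretch could go to either gene. The counts of A930024N18Rik, on the opposite strand to Dll1, came to 23.7% of those of Dll1, and those of Gm14207, opposite Dll4, to 5.16%. For Notch1 and Notch2 the overlapping genes held less than 2% of the member's counts (1.59% for 0610009E02Rik, 0.194% for Gm13568 and 0.734% for Gm42820).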

How the data were processed

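RNA of 50 thyroid libraries was sequenced as single-end reads. The authors deposited a table of raw read counts per gene and a deposited table of FPKM, per the file headers and values. The aligner GSNAP and the package limma are named in the submitters' processing notes. For the genome build, the annotation, the counting program and the strand setting no source used here gives a name. Symbols were matched by ID to GENCODE M21 for 52403 of 52636 genes, and 0 columns of either table had no sample.

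FPKM fell into 2 blocks of 30 and 20 libraries with separate scaling, the second holding aN1aN2 at 15 hours and all 5-day groups, so FPKM was compared within a block only. Counts were tested with edgeR 4.0.16 in R 4.3.3 (TMM, filterByExpr with a minimum count of 10, robust quasi-likelihood fit, adjusted p threshold 0.05). Comparisons within 1 time or set used a fit of its groups. Those between sets or over time used fits that span both sets or both times. Intervals are 95%. Alternatives included DESeq2 1.42.0, limma 3.58.1 (voom with quality weights, or log2(FPKM + 0.1)), other scaling and filters, and covariates. Scripts were tested on simulated counts. Of 100 pairs of replicates, the most alike had a chi-square of 15.6 per degree of freedom, so every library was counted separately. Summed CPM of marker lists served as covariates.

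The 7 genes, the gene lists and the marker lists were chosen with earlier results of these data known. Named genes are the 7 members throughout, up to 4 pathway genes per direction with the largest changes past the threshold, Notch3, and the 3 genes with the highest correlation with each member on log2(CPM + 1). Promoter sequence is RefSeq's, of GRCm38.p6. The build of the tables is not known, so no coordinates are given for counts. The orders by exon length and by longest transcript the comparison with RW of 5 days and the fit without aN1aN2 replicates 2 and 5 of 15 hours were added after the data were seen.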

Additional observations from a re-analysis of the deposited data

Results flagged for a closer look

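In RW mice of the first 7-day set, Notch2 was at 80.1 CPM in replicate 5, far from the 119.7 to 135.3 CPM of the other 4 libraries. The gap to the nearest library took up 0.718 of the group's range. Over the 70 combinations of gene and group examined, this was the 1 that passed the limit for a lone extreme value, and chance passes about 1 in 20 such groups. Notch1 was also lowest in that library. Without it, the difference in Notch2 between aJ1aJ2 and RW at 7 days changed from 0.06 to -0.05 on the log2 scale, with an adjusted p of 0.913 in edgeR.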

How the results depend on the processing

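Directions and calls were recomputed over other scalings and filters, DESeq2, voom with quality weights, log2(FPKM + 0.1) with limma (not run for the fits that span both FPKM blocks), covariates, a replicate block, the 2 groups alone (not possible for changes of an effect) and each library left out. Of 868 values for single genes under other settings, 795 kept their direction and side of the threshold, 41 reversed, 19 came past it and 13 fell short. Of 1120 values with 1 library left out, 1006 kept both and 95 reversed. The cause was not tested, except that leaving out libraries or the third group lowers the number of samples.

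Counts of members called are given with the genes called of all tested in brackets. The count between aN1aN2 and aJ1aJ2 at 15 hours went from 1 (24) to 0 without the count filter (21), with voom (57), with the replicate block (29), with only the 2 groups (11) and with aN1aN2 replicates 2 and 5 left out (0), and was 0 to 1 with libraries left out. For aJ1aJ2 against RW at 5 days it went from 0 (33) to 1 with voom (3475) and with the muscle (1105) or endothelium (883) covariate, and between the antibodies at 5 days from 0 (0) to 1 with voom (69). In the second 7-day set it went from 1 (3614) to 3 with total counts (3013), 2 with DESeq2 (4880), 5 with voom (8214), 2 with the muscle covariate (4983), 0 with the endothelium covariate (1475) and 2 with the replicate block (2100), and was 0 to 3 with libraries left out. Between the sets it went from 7 (12530) to 2 with the endothelium covariate (3534), for RW over time from 0 (632) to 3 with voom (3830), and for the change of the aN1aN2 effect from 0 (348) to 1 with voom (1458) and the muscle (1636) or endothelium (2336) covariate. The number of neighbouring pairs separated in the FPKM order went from 2 to 0 with the RW libraries of 5 days, whose number cannot give a p under 0.05. The Dll1 call between the sets was lost with total counts, with the endothelium covariate, with only the 2 groups and without replicate 1, 2 or 3 of the second set.

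The block by replicate number was fitted although the numbers did not pair the libraries. Deviations of same-numbered libraries correlated from -0.69 to 0.81, no pair of groups had all 5 correlations above 0.1, and at most 3 of 5 libraries correlated best with their own number. With the block, the genes called went from 106 to 36 (aJ1aJ2, 15 hours), 311 to 186 (aN1aN2, 15 hours), 24 to 29 (between them), 33 to 1 (aJ1aJ2, 5 days), 3614 to 2100 (second set), 12530 to 11940 (between sets) and 632 to 409 (RW over time). For changes of an effect they went from 58 to 26, 123 to 44 and 348 to 282. Dll4 between the antibodies at 15 hours was -1.02 with an adjusted p of 0.104 in edgeR.

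Differences near 0 changed sign under single settings, all on the log2 scale. With total counts these were Dll4 after aJ1aJ2 at 15 hours (0.0029), Jag2 after aN1aN2 at 5 days (0.21), Notch2 at 7 days (-0.0086), Dll4 in the second set (0.063), and the changes of the aJ1aJ2 effect on Jag1 to 7 days (-0.025) and to 5 days (0.11). With voom they were Jag1 (0.022) and Jag2 (-0.028) between the antibodies at 15 hours, Jag2 after aN1aN2 at 5 days (0.22), Dll4 in the second set (0.19), Dll1 in RW over time (-0.0076), and the aJ1aJ2 effect on Jag2 to 7 days (-0.094) and on Dll4 to 5 days (-0.013). With FPKM they were Dll4 after aJ1aJ2 (-0.011) and Jag2 after aN1aN2 (0.029) at 5 days and the aJ1aJ2 effect on Notch1 to 7 days (0.012). With the muscle covariate they were Jag1 after aN1aN2 at 5 days (0.17), Notch1 (0.20) and Notch2 (0.24) between the antibodies at 5 days, Notch2 in RW over time (-0.030), and the aJ1aJ2 effect on Notch1 to 7 days (0.0079) and Jag1 to 5 days (0.075). With the endothelium covariate they were Notch4 (0.0022) and Jag1 (0.24) after aN1aN2 at 5 days, Notch1 (0.23) and Notch2 (0.26) between the antibodies at 5 days, Jag2 in the second set (-0.33), Notch2 in RW over time (-0.021) and the aJ1aJ2 effect on Jag1 to 5 days (0.089). With the replicate block they were Dll4 after aJ1aJ2 (-4.02e-05) and Jag2 after aN1aN2 (0.020) at 5 days, Notch1 (0.040) and Notch2 (0.067) between the antibodies at 5 days and the aJ1aJ2 effect on Jag1 to 5 days (0.0063). Against RW of 5 days, a control added after the data were seen, Jag2 after aN1aN2 at 15 hours was 0.49. With aN1aN2 replicates 2 and 5 of 15 hours left out, also added then, Notch1 after aN1aN2 was 0.038, Notch1 (0.17), Notch2 (0.047), Notch4 (0.031) and Jag1 (0.13) between the antibodies at 15 hours changed sign, and so did the aN1aN2 effect on Jag1 (-0.056).

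With 1 library left out, the values that crossed 0 ran as follows. After aJ1aJ2 at 15 hours they were Notch1 -0.17 to 0.036, Notch2 -0.10 to 0.096 and Dll4 -0.10 to 0.081. Between the antibodies at 15 hours they were Notch1 -0.34 to 0.044, Jag1 -0.22 to 0.036 and Jag2 -0.017 to 0.21. After aJ1aJ2 at 5 days they were Notch1 -0.022 to 0.33, Notch2 -0.14 to 0.28, Jag2 -0.086 to 0.32 and Dll4 -0.085 to 0.12. After aN1aN2 at 5 days they were Notch1 -0.046 to 0.31, Notch2 -0.20 to 0.20, Jag1 -0.33 to 0.014 and Jag2 -0.15 to 0.25. Between the antibodies at 5 days they were Notch1 -0.18 to 0.15, Notch2 -0.25 to 0.083, Jag1 -0.075 to 0.16 and Jag2 -0.17 to 0.038. At 7 days in the first set they were Notch2 -0.049 to 0.19 and Jag2 -0.063 to 0.0097, and in the second Jag2 -0.20 to 0.53, Dll1 -0.042 to 0.44 and Dll4 -0.25 to 0.082. In RW over time they were Notch2 -0.041 to 0.13 and Jag1 -0.0018 to 0.11. For the aJ1aJ2 effect they were Notch1 -0.25 to 0.049, Notch2 -0.045 to 0.25 and Jag1 -0.016 to 0.18 to 7 days, and Notch2 -0.15 to 0.29, Jag1 -0.24 to 0.12 and Dll4 -0.079 to 0.14 to 5 days. For the aN1aN2 effect they were Notch2 -0.031 to 0.38, Jag1 -0.081 to 0.28 and Jag2 -0.0017 to 0.37.

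Counts of all genes called moved by over 1.5 times. Over the other settings they were 36 to 265 and 135 to 842 at 15 hours (aJ1aJ2, aN1aN2), 0 to 504 between those antibodies, 0 to 3475, 0 to 1507 and 0 to 69 in the same order at 5 days, 0 to 621 and 1475 to 8214 in the first and second set, 3534 to 15137 between sets and 409 to 3830 for RW over time. For changes of an effect they were 20 to 378, 27 to 3200 and 198 to 2336. With libraries left out they were 35 to 127, 120 to 331 and 9 to 44 at 15 hours, 0 to 197, 0 to 9 and 0 to 1 at 5 days, 0 to 20 and 2042 to 4305 at 7 days, 299 to 1057 for RW, and 6 to 146, 20 to 271 and 224 to 511 for effects. Members in the second set rest on as few as 58 reads per library (Dll1).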
